A study of Homo sapiens with 6 samples.

Results

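Aminoacyl-tRNA synthetases are the enzymes that join each amino acid to its transfer RNA. Of the 58735 genes in the deposited table, 36 were chosen by gene name, of which 20 encode cytosolic and 16 encode mitochondrial enzymes. RNA was sequenced in 6 libraries labelled Hep3B, an established human liver cancer cell line. A short hairpin RNA (shRNA) against HYOU1, which encodes a chaperone of the endoplasmic reticulum, was used in 3 of them and a control shRNA in the other 3. No further allele, agent or time is named. Whether replicates came from separate cultures, and how many hairpins or clones were used, is not stated, so p-values reflect the spread between libraries and that spread may be technical. The comparison asks how the mRNA of these enzymes differs between cells with HYOU1 shRNA and cells with control shRNA, and whether cytosolic and mitochondrial enzymes differ in this.

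Protein synthesis takes place in the cytosol and, for the few proteins encoded by mitochondrial DNA, inside mitochondria. Most amino acids have separate nuclear genes for the synthetase of each place, while GARS and KARS supply both the cytosol and mitochondria. Several cytosolic enzymes are held in a multisynthetase complex, and all synthetases fall into class I or class II by the fold of their catalytic core. Many cytosolic synthetase genes are known targets of ATF4, a transcription factor of the integrated stress response that binds C/EBP-ATF response elements.

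Promoter windows of 300 bases, from 250 bases before to 50 bases after a RefSeq start on GRCh38.p14, were examined for 29 of the 36 genes, in 38 windows. They were searched on both strands for TGATGCAA, the core of the C/EBP-ATF response element, and for the looser TGATGNAA, which includes every TGATGCAA. TGATGCAA was present for 5 of the 15 cytosolic genes examined (CARS, IARS, MARS, NARS and TARS) and for 0 of the 14 mitochondrial genes examined. Of all 27305 genes with such windows, 1.08% held it in at least 1 (0.866% of 35116 windows). TGATGNAA added GARS and YARS2, and was held by 4.46% of all genes (3.62% of windows). A match describes these letters and not a bound site. The windows of IARS (chr9:92293648-92293947, minus strand), MARS (chr12:57487818-57488117, plus strand) and NARS (chr18:57621787-57622086, minus strand) are shown because they hold the match in genes whose mRNA differed in behaviour, with the match in capitals.
IARS: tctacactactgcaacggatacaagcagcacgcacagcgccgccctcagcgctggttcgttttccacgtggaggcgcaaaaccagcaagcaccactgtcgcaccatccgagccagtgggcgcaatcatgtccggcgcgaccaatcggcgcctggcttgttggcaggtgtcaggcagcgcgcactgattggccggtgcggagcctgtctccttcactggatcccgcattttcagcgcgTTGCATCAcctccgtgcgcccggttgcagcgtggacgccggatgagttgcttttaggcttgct
MARS: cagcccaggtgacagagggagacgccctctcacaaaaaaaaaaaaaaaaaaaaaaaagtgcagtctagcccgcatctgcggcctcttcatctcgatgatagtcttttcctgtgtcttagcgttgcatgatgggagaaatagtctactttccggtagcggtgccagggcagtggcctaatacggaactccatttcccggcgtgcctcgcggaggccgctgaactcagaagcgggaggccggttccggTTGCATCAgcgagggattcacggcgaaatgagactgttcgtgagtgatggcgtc
NARS: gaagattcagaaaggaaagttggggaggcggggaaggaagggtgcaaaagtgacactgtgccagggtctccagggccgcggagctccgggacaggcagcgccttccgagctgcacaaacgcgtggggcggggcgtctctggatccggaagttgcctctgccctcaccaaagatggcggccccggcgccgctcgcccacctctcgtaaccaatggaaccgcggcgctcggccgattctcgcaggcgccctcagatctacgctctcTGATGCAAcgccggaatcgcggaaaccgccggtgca
Counted from the start site, the first base of the match lay at position -13 for IARS, -4 for MARS and 14 for NARS. The windows of EPRS (chr1:220046456-220046755, minus strand) and WARS (chr14:100376278-100376577, minus strand) belong to the cytosolic genes with the largest falls, and held neither motif.
EPRS: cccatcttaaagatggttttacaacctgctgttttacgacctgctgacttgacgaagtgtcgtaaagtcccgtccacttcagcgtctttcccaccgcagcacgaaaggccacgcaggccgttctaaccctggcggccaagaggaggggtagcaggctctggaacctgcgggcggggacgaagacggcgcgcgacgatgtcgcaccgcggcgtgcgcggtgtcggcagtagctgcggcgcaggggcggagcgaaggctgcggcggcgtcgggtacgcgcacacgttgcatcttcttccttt
WARS: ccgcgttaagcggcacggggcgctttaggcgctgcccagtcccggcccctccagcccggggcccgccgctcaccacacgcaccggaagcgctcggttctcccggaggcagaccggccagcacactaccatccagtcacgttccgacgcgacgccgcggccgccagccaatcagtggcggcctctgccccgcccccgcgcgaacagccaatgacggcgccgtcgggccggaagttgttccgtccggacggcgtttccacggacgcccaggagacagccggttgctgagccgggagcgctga
The window of HARS2 (chr5:140691205-140691504, plus strand) is shown because it also contains the start of HARS, which is transcribed from the other strand 85 bases away.
HARS2: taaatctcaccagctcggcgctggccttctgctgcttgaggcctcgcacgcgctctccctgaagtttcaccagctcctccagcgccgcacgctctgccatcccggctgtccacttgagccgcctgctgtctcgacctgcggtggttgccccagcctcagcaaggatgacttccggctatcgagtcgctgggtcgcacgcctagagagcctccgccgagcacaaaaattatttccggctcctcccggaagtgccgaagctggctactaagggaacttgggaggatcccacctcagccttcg

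The libraries held 17537179 to 18233240 fragments with HYOU1 shRNA and 16893091 to 18210661 with control shRNA. These were recovered from the deposited FPKM (fragments scaled by gene length and a total for each library). That total was not the fragment sum, at 18736631 against 18210661 in control replicate 2. Relative to each other, the totals equalled size factors computed from the recovered fragments (median ratio to each gene's geometric mean), at 0.953 to 1.05. HYOU1 was at 2.35, 2.32 and 2.37 FPKM in the HYOU1 shRNA libraries and at 37.6, 58.2 and 59.5 FPKM in the control libraries, in order of replicate number, and so followed the labels. ALB, the defining hepatocyte gene, was listed at 0 in every library, and AFP, the fetal hepatocyte marker, was at 0.0343 FPKM or less. Both are known to be expressed in Hep3B, so these values go against the label, which is used here only as the name of the libraries. Of 6 hepatocyte markers 4 reached a mean of 1 FPKM. The summed level of these markers was 57.1 to 64.6 FPKM with HYOU1 shRNA and 63.7 to 83.5 FPKM in the control. PTPRC, CD3E, KDR and COL1A2 were at 0 throughout, none of 5 immune and 5 endothelial markers reached 1 FPKM, and 3 of 6 fibroblast markers did. Fibroblast markers summed to 9.17 to 9.54 FPKM with HYOU1 shRNA and 9.19 to 10.6 FPKM in the control. These sums hide opposite differences between the groups. Of the 3 fibroblast markers tested, 1 was called higher and 1 lower with HYOU1 shRNA (limma, adjusted p under 0.05). Of all tested genes, 6.60% were called higher and 5.66% lower. The libraries of the groups did not overlap for any of the 3, with 1 higher and 2 lower. In such bulk libraries, fewer cells of a type and less RNA per cell cannot be told apart. Control replicate 1 stood apart from the other control libraries along the GC content of the transcripts, so counts of synthetases are also given without it and after a correction for GC content.

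The 36 mRNAs spanned a wide range, and the cytosolic ones were mostly the more abundant. With HYOU1 shRNA the highest cytosolic mean was that of KARS, the lysyl enzyme, at 74.4 ± 2.60 FPKM, against 58.0 ± 2.42 FPKM in the control (SD, n = 3 each). CARS, the cysteinyl enzyme, had the lowest cytosolic mean in the HYOU1 shRNA libraries, at 6.87 ± 0.382 FPKM, against 7.61 ± 1.13 FPKM in the control (SD, n = 3 each). Among the mitochondrial enzymes IARS2, which charges isoleucine, stood far above the others, at 59.9, 58.8 and 52.9 FPKM with HYOU1 shRNA and 91.9, 63.6 and 62.7 FPKM in the control. SARS2, the mitochondrial seryl enzyme, was the lowest of all 36, at 0.674, 1.20 and 1.34 FPKM with HYOU1 shRNA and 0.218, 0.429 and 0.966 FPKM in the control. Its groups overlapped, it rested on 12 to 76 fragments a library, and it alone fell short of the mean of 1 FPKM required for the test. It also shares 46.2% of its exonic bases with AC011455.2 on the same strand, a gene whose mean was 0.00461 FPKM. Another 10.8% overlap is with MRPS12 on the opposite strand, at a mean of 22.6 FPKM, so the value of SARS2 is uncertain.

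**Figure D1:**
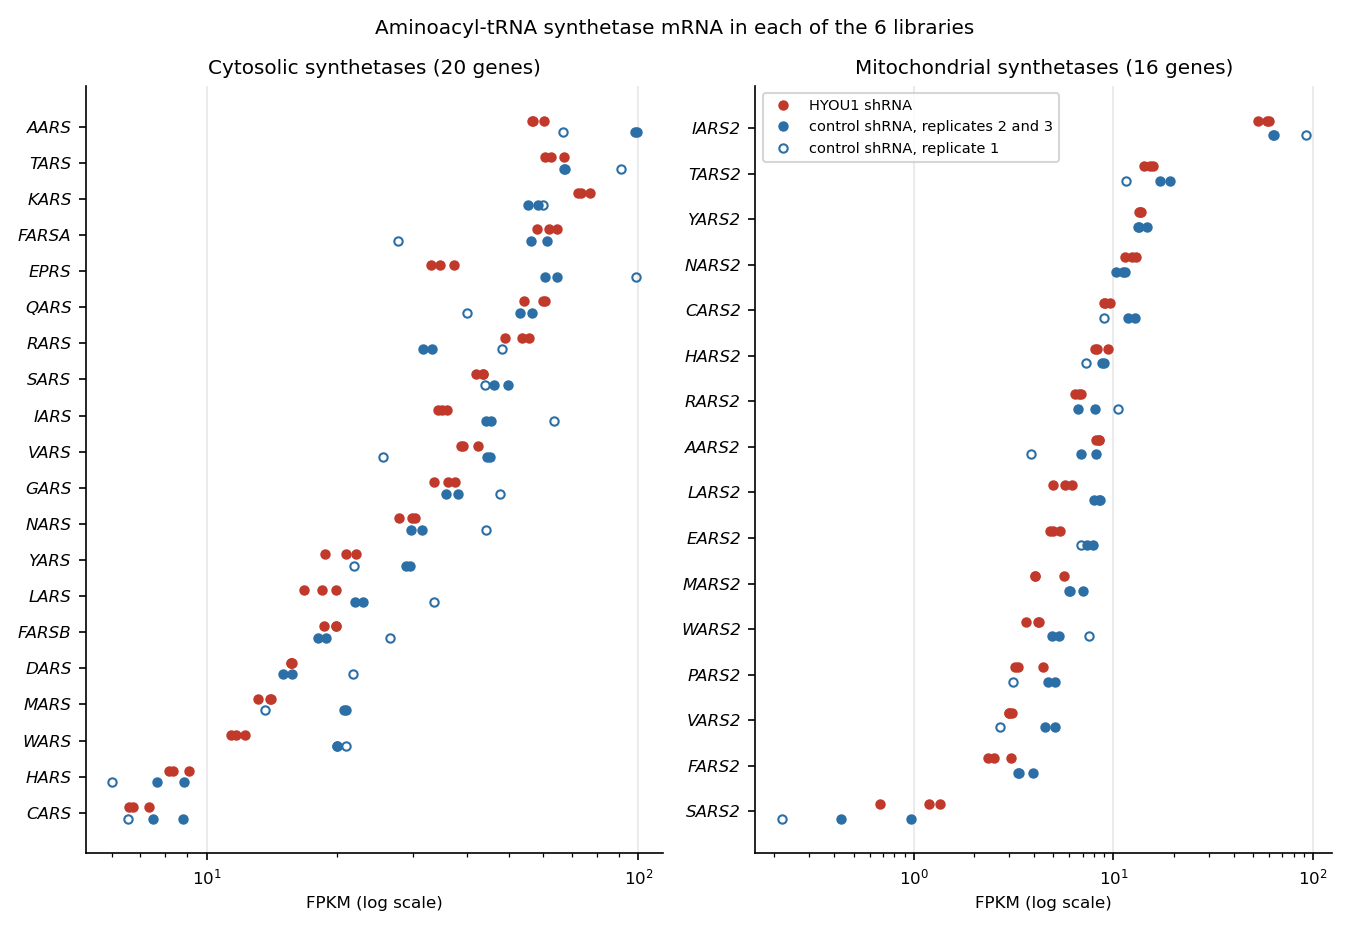
Level of each of the 36 synthetase mRNAs in FPKM (log axis), with 1 point per library, HYOU1 shRNA above control shRNA, and open circles for control replicate 1. Cytosolic genes are on the left and mitochondrial genes on the right, and in EPRS, WARS, LARS2 and EARS2 all 3 HYOU1 shRNA points lie below all 3 control points.

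Summed over the 20 cytosolic genes, the level was 694, 715 and 697 FPKM with HYOU1 shRNA and 809, 771 and 789 FPKM in the control. Summed over the 16 mitochondrial genes it was 163, 163 and 155 FPKM with HYOU1 shRNA and 197, 183 and 185 FPKM in the control. Both sums were thus lower in every HYOU1 shRNA library than in every control library. Their ratio, cytosolic over mitochondrial, was 4.25, 4.37 and 4.495 with HYOU1 shRNA and 4.11, 4.22 and 4.26 in the control, and these ranges overlapped. The sums are led by the few most abundant mRNAs, and no p is given for them.

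Of the 35 synthetase genes tested, 4 fell with HYOU1 shRNA and 0 rose (limma, adjusted p under 0.05 over all 12448 tested genes). Among all tested genes 5.66% fell and 6.60% rose. The 4 were EPRS and WARS of the cytosol, and LARS2 and EARS2 of mitochondria. At an unadjusted p under 0.05, limma gave 10 lower and 2 higher members, where 14.6% of all tested genes were lower and 17.0% higher. The voom test on the recovered fragments also called 4 lower and 0 higher, against 6.60% and 7.91% of all tested genes. The median log2 fold change was -0.23 over the 35 genes and 0.04 over all tested genes, and 26 of the 35 were negative. The libraries of the groups did not overlap for 13 members that were lower and 4 that were higher, where 20.6% and 23.8% of all tested genes behaved so.

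The counts depended on which libraries were used. When control replicate 1 was left out, 16 members fell and 2 rose, against 19.7% and 24.6% of all tested genes. After the GC correction 14 fell and 2 rose, against 20.2% and 20.4% of all tested genes. Of these, 13 fell under both and 2, RARS and KARS, rose under both, and all 4 genes called in the 6 libraries were among the 13. Leaving out control replicate 2 left 1 fall, WARS, where 1.21% of all tested genes fell, and leaving out control replicate 3 left EPRS and WARS, where 3.44% fell. With HYOU1 shRNA replicate 1, 2 or 3 left out, limma called 0 members, with 7, 8 and 6 members at an unadjusted p under 0.05, and 0.578%, 0.378% and 0.217% of all tested genes fell. The 16 genes called in none of the 6-library, GC-corrected and control-replicate-1-free fits were CARS, DARS, FARSA, FARSB, GARS, HARS, NARS, QARS, SARS, TARS, AARS2, HARS2, IARS2, NARS2, RARS2 and YARS2.

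**Figure D2:**
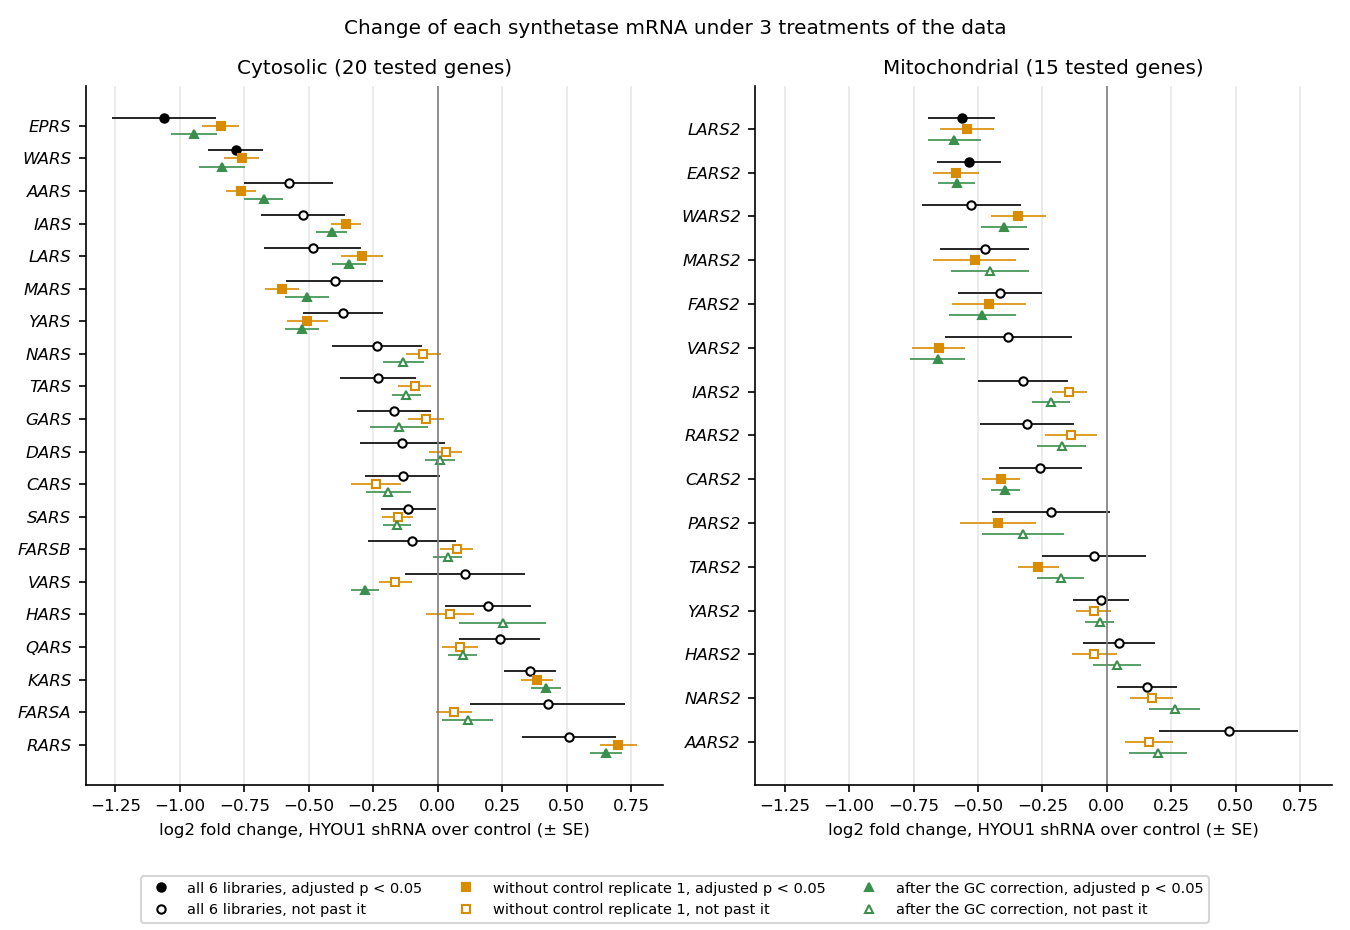
Log2 fold change of HYOU1 shRNA over control shRNA (horizontal axis, ± SE) for the 20 cytosolic and 15 mitochondrial genes tested, in all 6 libraries (black), after the GC correction (green) and without control replicate 1 (orange). Filled symbols are past an adjusted p of 0.05 in limma; EPRS is the lowest cytosolic gene at -1.06 and RARS the highest at 0.51 in all 6 libraries.

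The position of control replicate 1 could be read from the synthetases themselves. Its log2 level minus the mean of control replicates 2 and 3 ran between 0.66 for EPRS and -1.24 for SARS2. Across the 36 genes this deviation correlated with the GC content of the longest transcript at a Pearson's r of -0.93, a description of genes that share the same 3 libraries. All 12 members under 45% GC were higher in control replicate 1, and all 13 members over 52% GC were lower, with both limits chosen after the values were seen. WARS, LARS2 and KARS lay near 0, at 0.07, 0.06 and 0.08, and EARS2 at -0.15. For WARS, LARS2 and EARS2, control replicate 1 was thus close to the other controls, while EPRS stood highest there. The part of GC content in the other differences was not tested beyond the correction, which also removes any real difference that follows GC.

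**Figure D3:**
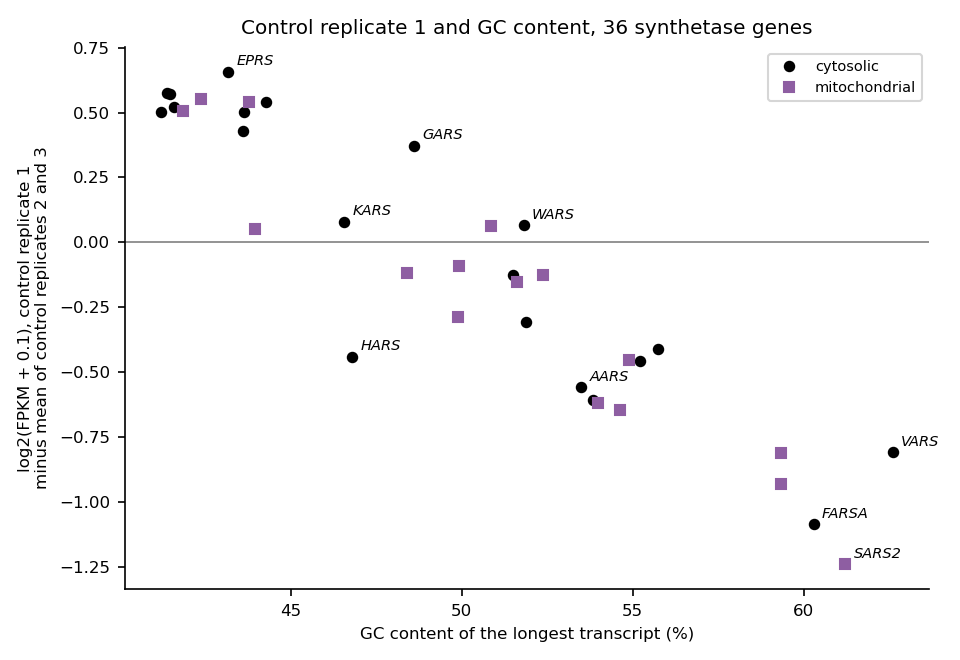
Deviation of control replicate 1 from the mean of control replicates 2 and 3, in log2(FPKM + 0.1), against the GC content of the longest transcript in percent, for 36 synthetase genes with cytosolic genes as circles and mitochondrial genes as squares. The points descend between 0.66 for EPRS and -1.24 for SARS2, with WARS and KARS near 0.

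EPRS (ENSG00000136628, chromosome 1, 219968601 to 220046658 on GRCh38) encodes the bifunctional enzyme that charges glutamate and proline and belongs to the multisynthetase complex. It was at 34.6, 37.3 and 32.9 FPKM in the HYOU1 shRNA libraries and at 98.9, 64.6 and 60.8 FPKM in the control libraries. Every HYOU1 shRNA library was below every control library, and control replicate 1 was the highest of the 6. The log2 fold change was -1.06 ± 0.20 (SE; limma, adjusted p = 0.0244), a 2.09-fold lower level. It was -0.84 without control replicate 1 (limma, adjusted p = 7.89e-05) and after the GC correction -0.95 (limma, adjusted p = 0.000468). The call was lost without any HYOU1 shRNA replicate (limma, adjusted p between 0.103 and 0.119), without control replicate 2 (0.0626) and with no filter on low values (0.0554).

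WARS (ENSG00000140105, chromosome 14, 100333788 to 100376805) encodes the cytosolic tryptophanyl enzyme, which works outside the complex. Its levels were 11.6, 11.4 and 12.3 FPKM with HYOU1 shRNA and 20.9, 20.0 and 20.0 FPKM in the control. The replicates lay close together within each group, and the groups were well apart. WARS fell by 0.78 ± 0.11 (SE) on the log2 scale, to a 1.72-fold lower level (limma, adjusted p = 0.0104). It fell by 0.76 without control replicate 1 (limma, adjusted p = 9.24e-05) and by 0.84 after the GC correction (limma, adjusted p = 0.000735). Without HYOU1 shRNA replicate 1, 2 or 3 its adjusted p was between 0.0762 and 0.0808 (limma).

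AARS (ENSG00000090861), the alanyl enzyme, was among the most abundant. It was at 56.8, 56.6 and 60.5 FPKM with HYOU1 shRNA and at 66.9, 98.01 and 99.0 FPKM in the control. The groups did not overlap, but control replicate 1 was well below the other controls. In all 6 libraries its log2 fold change of -0.58 ± 0.17 (SE) was not past the threshold (limma, adjusted p = 0.0765). It fell by 0.76 without control replicate 1 (limma, adjusted p = 5.77e-05) and by 0.68 after the GC correction (limma, adjusted p = 0.000952). IARS, the isoleucyl enzyme of the complex, was at 35.0, 36.02 and 34.3 FPKM with HYOU1 shRNA and 63.7, 44.3 and 45.5 FPKM in the control. Its groups did not overlap either, though here control replicate 1 was the highest, and its log2 fold change was -0.52 (limma, adjusted p = 0.0831). IARS fell by 0.35 without control replicate 1 and by 0.41 after the GC correction (limma, adjusted p = 0.00173 and 0.00254).

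MARS, the methionyl enzyme, was at 13.1, 13.9 and 14.0 FPKM with HYOU1 shRNA and at 13.6, 20.8 and 20.9 FPKM in the control. Its groups overlapped only through control replicate 1, and its log2 fold change of -0.40 did not pass the test (limma, adjusted p = 0.203). It fell by 0.60 without that library and by 0.51 after the GC correction (limma, adjusted p = 0.000242 and 0.00417). MARS shares 5.05% of its exonic bases with DDIT3 on the opposite strand, and reads of overlapping genes cannot be told apart where strand was not used. LARS, the leucyl enzyme, was at 19.9, 18.4 and 16.8 FPKM with HYOU1 shRNA and 33.5, 22.02 and 23.0 FPKM in the control. Its log2 fold change was -0.49 in all 6 libraries (limma, adjusted p = 0.135) and -0.29 without control replicate 1 (limma, adjusted p = 0.0195). YARS, the tyrosyl enzyme, was at 20.9, 18.8 and 22.1 FPKM with HYOU1 shRNA and 21.9, 28.9 and 29.6 FPKM in the control, and fell by 0.51 without control replicate 1 (limma, adjusted p = 0.0014) but did not pass the test in all 6 libraries (0.162).

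Members of the complex also differed in the other direction. RARS, the arginyl enzyme, was at 53.6, 55.7 and 49.0 FPKM with HYOU1 shRNA and at 48.3, 31.6 and 33.2 FPKM in the control. All 3 HYOU1 shRNA libraries were above the control libraries, with only a narrow gap to control replicate 1. Its log2 fold change of 0.51 ± 0.18 (SE) did not pass the test in all 6 libraries (limma, adjusted p = 0.115). RARS rose by 0.70 without control replicate 1 (limma, adjusted p = 0.000184) and by 0.65 after the GC correction (limma, adjusted p = 0.000509). KARS was at 72.3, 77.3 and 73.6 FPKM with HYOU1 shRNA and at 60.1, 55.4 and 58.5 FPKM in the control, without overlap. Its log2 fold change was 0.36 ± 0.10 (SE; limma, adjusted p = 0.0634). It passed the threshold after rescaling to TPM (0.0462), after the GC correction (0.00176) and without control replicate 1 (0.00146), each from limma. KARS shares 4.33% of its exonic bases with TERF2IP on the opposite strand.

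The 8 genes of the multisynthetase complex thus held members that differed in opposite directions. With control replicate 1 left out, EPRS, IARS, LARS and MARS fell, RARS and KARS rose, and DARS and QARS did not pass the test. The GC correction gave the same counts of 4 and 2. Of all tested genes, 19.7% fell and 24.6% rose without control replicate 1, and 20.2% and 20.4% after the GC correction. Falls and rises were thus both common among all tested genes. Among the synthetases, however, the only called rises, RARS and KARS, lay in the complex. The median log2 fold change of the 8 was -0.27 in all 6 libraries and -0.13 without control replicate 1. Of the 12 cytosolic genes outside the complex, 1 fell in all 6 libraries, 3 fell without control replicate 1 and 4 fell after the GC correction. In these 3 fits 5.66%, 19.7% and 20.2% of all tested genes fell. The median of the 12 was -0.15 in all 6 libraries. In these 3 fits limma called 0 of the 12 higher, with 0 of them higher at an unadjusted p under 0.05. Of all tested genes, 6.60%, 24.6% and 20.4% were called higher.

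VARS, the valyl enzyme, was at 39.2, 38.8 and 42.4 FPKM with HYOU1 shRNA and 25.6, 45.4 and 44.6 FPKM in the control. Its direction turned with control replicate 1. The log2 fold change was 0.11 in all 6 libraries (limma, adjusted p = 0.781), -0.17 without that library (0.0656) and -0.28 after the GC correction (0.00676). FARSA, the catalytic subunit of the cytosolic phenylalanyl enzyme, was at 58.1, 61.9 and 64.9 FPKM with HYOU1 shRNA and 27.7, 56.5 and 61.4 FPKM in the control. Its log2 fold change was 0.43 in all 6 libraries and 0.06 without control replicate 1, and it was called in neither (limma, adjusted p = 0.369 and 0.485). FARSB, the other subunit, had a log2 fold change of -0.10 in all 6 libraries and 0.07 without control replicate 1. GARS, the glycyl enzyme shared with mitochondria, was at 37.6, 36.2 and 33.6 FPKM with HYOU1 shRNA and 47.8, 38.2 and 35.7 FPKM in the control, with overlapping groups and a limma adjusted p of 0.449. DARS, QARS and SARS, which charge aspartate, glutamine and serine, had log2 fold changes of -0.14, 0.24 and -0.11 in all 6 libraries and 0.03, 0.09 and -0.16 without control replicate 1. Of these, DARS and QARS had overlapping groups, while SARS was at 43.7, 43.5 and 42.1 FPKM with HYOU1 shRNA and 44.0, 46.3 and 49.7 FPKM in the control, a narrow separation that did not pass the test (limma, adjusted p = 0.492).

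CARS, NARS and TARS, which also hold TGATGCAA in a promoter window, did not pass the test in any of the 3 fits. NARS, the asparaginyl enzyme, was at 30.4, 29.9 and 27.9 FPKM with HYOU1 shRNA and 44.4, 29.6 and 31.4 FPKM in the control, and the groups overlapped. TARS, the threonyl enzyme, was at 62.6, 67.2 and 60.7 FPKM with HYOU1 shRNA and 90.9, 67.7 and 67.2 FPKM in the control. Its groups were separated by less than the spread within either of them. Of the 5 genes with the match, limma called 0 in all 6 libraries, with IARS alone at an unadjusted p under 0.05. IARS and MARS, 2 of the 5, fell without control replicate 1, where 19.7% of all tested genes fell, while EPRS and WARS fell and held no match in the windows searched.

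Among the mitochondrial genes, LARS2 and EARS2 fell and limma called 0 of the 15 tested higher, with 0 higher at an unadjusted p under 0.05 and 0 called higher by voom. LARS2 (ENSG00000011376, chromosome 3, 45388506 to 45549421), the leucyl enzyme, was at 5.68, 4.98 and 6.19 FPKM with HYOU1 shRNA and at 8.57, 7.97 and 8.43 FPKM in the control. The groups did not overlap, and control replicate 1 lay with the other controls. The log2 fold change was -0.56 ± 0.13 (SE; limma, adjusted p = 0.0389), a 1.48-fold lower level. EARS2 (ENSG00000103356, chromosome 16, 23522014 to 23557731), which charges glutamate, was at 4.82, 5.01 and 5.41 FPKM with HYOU1 shRNA and at 6.88, 7.39 and 7.94 FPKM in the control. It too was lower in every HYOU1 shRNA library than in every control library. Its log2 fold change was -0.53 ± 0.12 (SE; limma, adjusted p = 0.0392), a 1.45-fold lower level. EARS2 shares 6.46% of its exonic bases with UBFD1 on the opposite strand.

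Both calls were near the threshold. Rescaling to TPM gave LARS2 and EARS2 an adjusted p of 0.0501 each, and without a filter on low values they were at 0.0867 and 0.0873 (limma). Leaving out any library other than control replicate 1 also ended both calls, with adjusted p between 0.0829 and 0.171 for LARS2 and between 0.0905 and 0.174 for EARS2 (limma). The log2 fold changes without control replicate 1 were -0.54 and -0.58 (limma, adjusted p = 0.00399 and 0.00132), and after the GC correction they were -0.59 and -0.58 (limma, adjusted p = 0.00468 and 0.00126).

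Further mitochondrial enzymes passed the test in some of the fits. VARS2, the valyl enzyme, was at 3.09, 3.00 and 2.99 FPKM with HYOU1 shRNA and 2.70, 5.12 and 4.52 FPKM in the control, where control replicate 1 was below all other libraries. It fell by 0.65 without that library and by 0.66 after the GC correction (limma, adjusted p = 0.00149 and 0.00331). WARS2, the tryptophanyl enzyme, was at 4.24, 4.20 and 3.63 FPKM with HYOU1 shRNA and 7.54, 4.91 and 5.33 FPKM in the control, and fell by 0.34 without control replicate 1 (limma, adjusted p = 0.0312). CARS2, the cysteinyl enzyme, and FARS2, the phenylalanyl enzyme, fell by 0.41 and 0.46 without control replicate 1 (limma, adjusted p = 0.0029 and 0.0323). These 4 also fell after the GC correction. MARS2, PARS2 and TARS2 fell without control replicate 1 (limma, adjusted p = 0.0347, 0.0462 and 0.0267) while the GC correction left them above the threshold (0.0514, 0.142 and 0.158). VARS2 shares 21.99% of its exonic bases with GTF2H4 on the same strand, a gene whose mean was 0.107 FPKM.

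IARS2, RARS2, NARS2, AARS2, HARS2 and YARS2 were not called in any of the 3 fits. In all 6 libraries IARS2 and RARS2 had log2 fold changes of -0.33 and -0.31 (limma, adjusted p = 0.248 and 0.284), and YARS2, the tyrosyl enzyme, of -0.02. NARS2, the asparaginyl enzyme, was at 13.0, 12.4 and 11.4 FPKM with HYOU1 shRNA and 11.2, 11.4 and 10.3 FPKM in the control. AARS2, the alanyl enzyme, was at 8.20, 8.46 and 8.46 FPKM with HYOU1 shRNA and 3.87, 8.15 and 6.85 FPKM in the control. Both were higher in every HYOU1 shRNA library by a narrow margin, and neither passed the test (limma, adjusted p = 0.391 and 0.274). HARS and HARS2, the cytosolic and mitochondrial histidyl enzymes, lie head to head on chromosome 5 and overlap by 437 bases of exon on opposite strands. HARS was at 8.14, 8.32 and 9.06 FPKM with HYOU1 shRNA and 6.03, 7.65 and 8.83 FPKM in the control. HARS2 was at 9.34, 8.30 and 8.11 FPKM with HYOU1 shRNA and 7.24, 9.0 and 8.74 FPKM in the control. The groups overlapped for both genes, with log2 fold changes of 0.20 and 0.05 (limma, adjusted p = 0.454 and 0.836).

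Genes of both places held calls. In all 6 libraries 2 of 20 cytosolic and 2 of 15 mitochondrial genes fell, with median log2 fold changes of -0.15 and -0.31. Without control replicate 1 it was 7 of 20 and 9 of 15, with medians of -0.12 and -0.34, and after the GC correction 8 of 20 and 6 of 15, with medians of -0.15 and -0.33. The 2 cytosolic rises, RARS and KARS, appeared in both of these fits. The difference between the 2 groups of genes was not tested as a whole. By structural class, 4 of the 19 class I genes and 0 of the 16 class II genes were called lower in all 6 libraries (limma; 8 and 2 were lower at an unadjusted p under 0.05, and voom also called 4 and 0), where 5.66% of all tested genes were called lower and 14.6% were lower unadjusted. Leaving out control replicate 1 gave 12 and 4, against 19.7% of all tested genes, with medians of -0.35 and -0.05, and after the GC correction 12 and 2, against 20.2%, with medians of -0.40 and -0.06. EPRS, which joins a class I and a class II enzyme, was counted in class I.

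For the 16 pairs of a cytosolic gene and the mitochondrial gene for the same amino acid, the difference of the log2 levels was compared within each library. The groups did not overlap for 9 pairs, of which 6 had a lower and 3 a higher cytosolic share with HYOU1 shRNA. Of single genes tested, 20.6% were lower and 23.8% higher without overlap, and no such share was computed over other gene pairs. The alanine pair differed most. Its log2 ratio of AARS to AARS2 was 2.78, 2.73 and 2.82 with HYOU1 shRNA and 4.08, 3.57 and 3.84 in the control, a difference of -1.05. For arginine the log2 ratio of RARS to RARS2 was 2.98, 3.01 and 2.91 with HYOU1 shRNA and 2.19, 2.23 and 2.02 in the control, a difference of 0.82. All 3 HYOU1 shRNA ratios were below the control for alanine and above it for arginine, and without control replicate 1 the differences were -0.93 and 0.84.

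The other lower ratios were those of EPRS to PARS2 (-0.85) and to EARS2 (-0.53), NARS to NARS2 (-0.39), YARS to YARS2 (-0.35) and IARS to IARS2 (-0.20). Leaving out control replicate 1 moved these to -0.42, -0.26, -0.23, -0.45 and -0.21. The other higher ratios were those of FARSA to FARS2 (0.84) and VARS to VARS2 (0.49), which were 0.52 and 0.49 without that library. With 3 libraries against 3, an exact two-sided permutation test cannot go below p = 0.1, which these 9 pairs reached, with an adjusted p of 0.178 over the 16 pairs. No pair therefore passed the threshold. Pairs that share EPRS or FARS2 are not independent. Without control replicate 1, and likewise after the GC correction, 12 pairs did not overlap, 7 lower and 5 higher. With a library left out groups separate more easily, and the permutation test then cannot go below p = 0.2. No share over all genes or other pairs was computed for either fit.

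**Figure D4:**
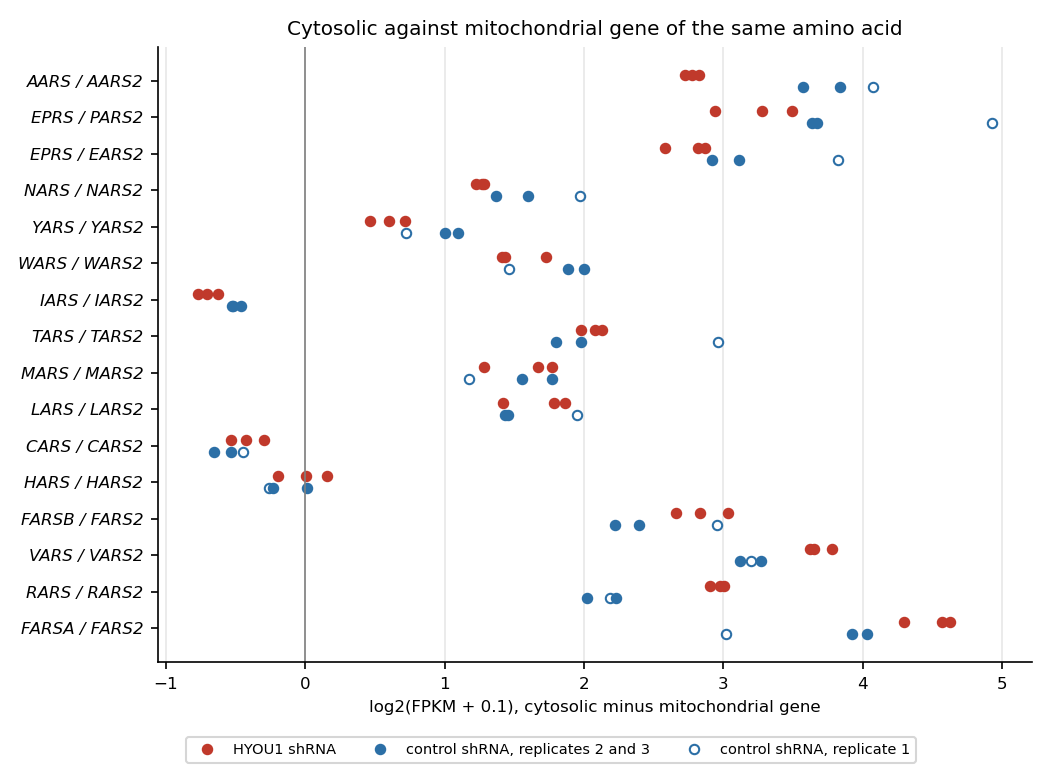
Log2 level of the cytosolic gene minus that of the mitochondrial gene for the same amino acid, in each library, with HYOU1 shRNA above control shRNA and control replicate 1 as open circles. The alanine pair at the top differed by -1.05 between the groups and the arginine pair near the bottom by 0.82.

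Lists of genes that act beside the synthetases are to be read against the 5.66% of all tested genes that fell and the 6.60% that rose in all 6 libraries. XPOT, the exportin that carries tRNA out of the nucleus, was at 18.5, 18.8 and 16.9 FPKM with HYOU1 shRNA and at 49.6, 31.8 and 31.9 FPKM in the control, with no overlap. It fell by 1.03 ± 0.20 on the log2 scale (SE; limma, adjusted p = 0.0247). It and RPP38, a subunit of the RNase P that trims tRNA, which rose by 0.52 (limma, adjusted p = 0.0474), were the 2 called among 22 tested genes of tRNA processing and export, whose median was -0.06. RPP38 was not called by voom. Of the 17 fits run, the main one included, 9 called RPP38, with adjusted p between 0.00451 and 0.199 (limma or voom). Of 21 tested genes of RNA polymerase III, which transcribes tRNA genes, and its factors, 3 fell and 1 rose, with a median of -0.24 (5.66% and 6.60% of all tested genes). The polymerase subunit POLR3D rose by 0.66 (limma, adjusted p = 0.0157). Its fellow subunit POLR3B fell by 0.63, and the transcription factor genes GTF3C6 and GTF3A fell by 0.81 and 0.57 (limma, adjusted p = 0.0359, 0.032 and 0.0402). With no filter on low values the falls of XPOT (0.057), POLR3B (0.0814), GTF3C6 (0.0721) and GTF3A (0.0853) were not past the threshold. The same 4 lost their calls when control replicate 2 or any HYOU1 shRNA replicate was left out, and the 3 polymerase III genes also without control replicate 3 (limma, adjusted p = 0.064, 0.0512 and 0.0564). In each of these fits limma called 0 genes of the polymerase III list lower, with 5 or 6 lower at an unadjusted p under 0.05. Of all tested genes, 0.217% to 3.44% were called lower in the fits that left out 1 of these libraries. With control replicate 1 left out, 7 of the 21 fell and 6 rose, against 19.7% and 24.6% of all tested genes.

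Limma called 0 of the 3 scaffold genes of the complex, 0 of the 4 genes of mitochondrial transamidation and formylation, and 0 of the 4 tested genes of editing and recycling. At an unadjusted p under 0.05 these lists held 0, 1 and 1 genes, and voom called 0 in each. All 4 genes of transamidation and formylation had negative log2 fold changes (median -0.26), as did 47.3% of all tested genes. Without overlap of the groups, 3 of these were lower, and 2 genes of editing and recycling (median 0.15) were higher. Of all tested genes, 20.6% were lower and 23.8% higher without overlap. The scaffold list held 0 such genes. The scaffold genes AIMP1 and AIMP2 had log2 fold changes of 0.05 and -0.17. MTFMT, which formylates the initiator methionyl-tRNA of mitochondria, was at 4.10, 3.89 and 4.10 FPKM with HYOU1 shRNA and 7.15, 5.58 and 5.05 FPKM in the control. Its groups did not overlap, and its log2 fold change was -0.53 in all 6 libraries and -0.39 without control replicate 1 (limma, adjusted p = 0.0779 and 0.0109). GATC, a subunit of the amidotransferase that makes mitochondrial glutaminyl-tRNA, had a log2 fold change of -0.28. The peptidyl-tRNA hydrolase PTRH2 and its relative PTRHD1 had log2 fold changes of 0.28 and 0.03.

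Of 19 tested genes in a list of ATF4 and its targets other than synthetases, 4 fell and 1 rose, with a median of -0.17, against 5.66% and 6.60% of all tested genes. PSAT1, an enzyme of serine synthesis, was at 14.8, 13.4 and 15.3 FPKM with HYOU1 shRNA and 81.2, 67.4 and 66.7 FPKM in the control, and fell by 2.30 (limma, adjusted p = 0.00168). The amino acid transporter genes SLC7A11, SLC7A5 and SLC3A2 fell by 1.90, 0.97 and 0.73 (limma, adjusted p = 0.00931, 0.0186 and 0.0401). ATF4 itself, named after its values were seen, was at 64.3, 69.0 and 68.8 FPKM with HYOU1 shRNA and 70.0, 83.2 and 86.9 FPKM in the control (limma, adjusted p = 0.221). Its groups were apart by a narrow margin, and it fell by 0.34 without control replicate 1 (limma, adjusted p = 0.00288). The 1 gene of the list that rose was ATF3. With no filter on low values limma called 0 genes of the list higher and 3 lower, with 2 higher at an unadjusted p under 0.05. Leaving out HYOU1 shRNA replicate 1, 2 or 3 gave 1 fall in the list each time, where 0.578%, 0.378% and 0.217% of all tested genes fell. Leaving out control replicate 2 gave 2 falls and control replicate 3 gave 3, where 1.21% and 3.44% of all tested genes fell. Without control replicate 1 there were 9 falls and 4 rises, against 19.7% and 24.6% of all tested genes.

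The mRNAs of the mitochondrial genome, which the mitochondrial synthetases serve, were lower together. All 13 were lower in every HYOU1 shRNA library than in every control library, as were 20.6% of all tested genes, and 8 of the 13 fell in the test, where 5.66% of all tested genes fell, with a median log2 fold change of -0.88. MT-CYB fell by 1.40, MT-ND3 by 1.01, MT-ND5 by 0.94 and MT-CO3 by 0.89 (limma, adjusted p = 0.0105, 0.0117, 0.0298 and 0.0137). Quantile scaling left no difference for MT-CO3. That scaling keeps only the rank of a gene within each library, so this outcome was set by ranks and is no test of its level. Quantile scaling kept 11 of the 13 negative with a median of -0.54, and gave 5 falls. The count was 3 with no filter on low values. It was also 3 without control replicate 2, where 1.21% of all tested genes fell. With HYOU1 shRNA replicate 1, 2 or 3 left out limma called 0, with 10, 11 and 10 lower at an unadjusted p under 0.05. In these fits 0.578%, 0.378% and 0.217% of all tested genes were called lower. All 13 fell without control replicate 1, where 19.7% of all tested genes fell, with a median of -0.65 for the 13. Mitochondrial genes supplied 3.39%, 3.84% and 3.52% of all fragments in the HYOU1 shRNA libraries and 7.59%, 5.17% and 4.96% in the control libraries. The median of the 15 mitochondrial synthetases, -0.31, was smaller in size, and its relation to the mitochondrial mRNAs was not tested.

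**Figure D5:**
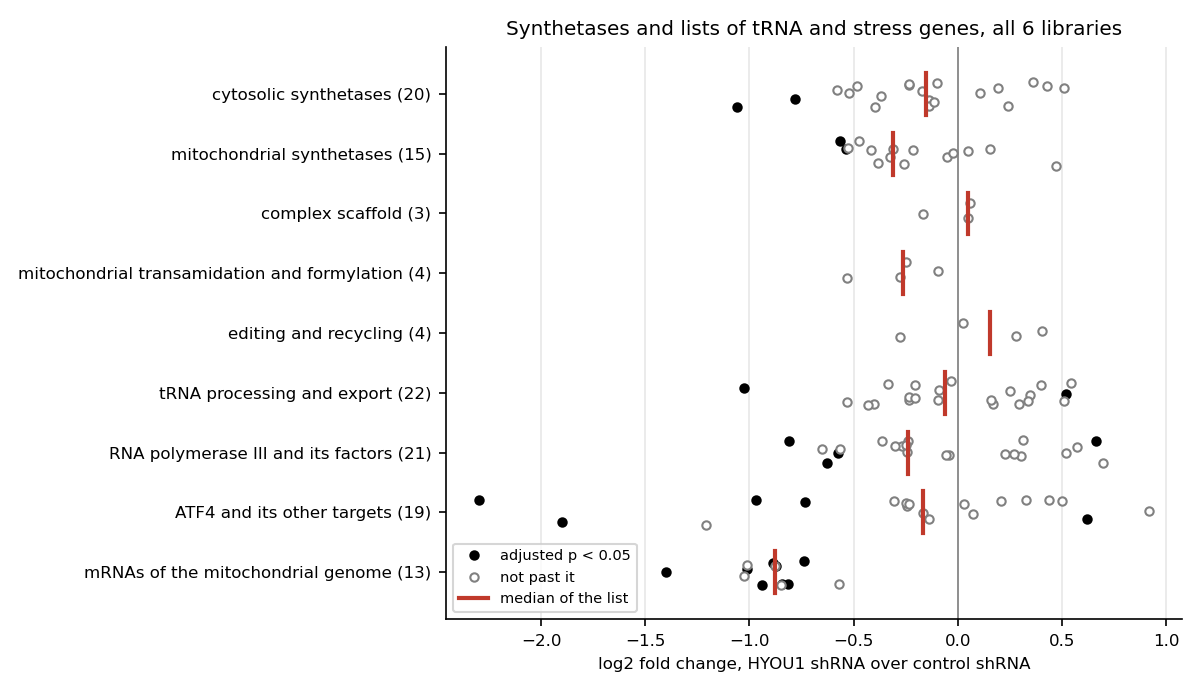
Log2 fold change of HYOU1 shRNA over control shRNA in all 6 libraries for the tested genes of the 2 synthetase groups and of 7 lists of tRNA, stress and mitochondrial genes, with 1 point per gene, filled where past an adjusted p of 0.05, and a red bar at each list's median. The medians lie at -0.15 for cytosolic synthetases, -0.31 for mitochondrial synthetases and -0.88 for the mRNAs of the mitochondrial genome.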

How the data were processed

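The authors deposited 1 table of FPKM values for 58735 genes with gene lengths and coordinates. No aligner or counting tool is named. All gene identifiers matched GENCODE 29 on GRCh38. Per the labels' protocols, polyadenylated RNA was captured and cDNA was primed with random hexamers; no step that marks strand is named. Whole fragments were recovered from the deposited FPKM for 100.0% of values within 0.01 fragments; 3 fragments were worth 0.160 to 0.176 FPKM for a gene of 1 kb, which covers counting error only.

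Values were used as log2(FPKM + 0.1), which understates changes of weakly expressed genes. Testing covered the 12448 genes that averaged 1 FPKM or more, with limma 3.58.1 in R 4.3.3 (variance trend, robust). Benjamini-Hochberg adjustment was made over all of them, with calls under 0.05. The fit was first checked on simulated data. Their spread was taken without control replicate 1, so the check does not cover the deviation of that library along GC content. Pairs of genes used an exact permutation test in scipy 1.17.1. The replicate numbers were not taken to pair the libraries. The GC correction removed a lowess trend (span 0.3) on transcript GC content in each library, leaving 6 genes without a GC value as they were. Other alternatives were pseudocounts of 1 and 0.01, no filter, TPM and quantile scaling, the replicate number as a block, voom on recovered fragments and leaving out each library.

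Members and lists were chosen with earlier results of these data known. All 36 members are named where described; for each list, up to 4 called genes with the largest change, or the 2 most abundant where none was called. ATF4 and ATF3 were added after their values were seen. Promoter sequences are from RefSeq, and 1 promoter window is not reported here.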

Additional observations from a re-analysis of the deposited data

How the results depend on the processing

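The calls rest on 3 libraries a group, and control replicate 1 widens the spread of the control group along GC content. The counts of called genes moved with the processing. With no filter on low values limma called 1 cytosolic and 0 mitochondrial synthetases (5 mitochondrial at an unadjusted p under 0.05), 7 partner genes and 770 genes in all, against 2, 2, 19 and 1526 as reported. TPM scaling called 0 mitochondrial synthetases (5 at an unadjusted p under 0.05). After the GC correction the counts were 10 cytosolic, 6 mitochondrial, 46 partner genes and 5048 in all. The GC correction without control replicate 1, chosen after seeing the data, gave 10, 9, 54 and 6049. Leaving out 1 library gave 0 to 9 cytosolic and 0 to 9 mitochondrial synthetases, 1 to 55 partner genes and 49 to 5518 genes in all. In each case the highest count was that without control replicate 1. The pseudocounts, quantile scaling and voom kept these 4 counts within 1.5 times.

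The deviations of libraries with the same replicate number correlated at 0.125, -0.093 and 0.17. With so few libraries a group, these values cannot settle whether libraries of the same number were prepared together. With the replicate block, limma called 2 cytosolic and 0 mitochondrial synthetases (4 mitochondrial at an unadjusted p under 0.05), 10 partner genes and 940 in all. Of the partner lists, 4 mRNAs of the mitochondrial genome then fell, and 0 genes of RNA polymerase III and its factors (5 lower at an unadjusted p under 0.05). With the block and the GC correction, added after seeing the data, the counts were 10, 6, 41 and 4504. HYOU1 shRNA replicates 1 and 3 correlated best with the control of their own number, and replicate 2 with control replicate 1 (0.087).

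The direction of some small log2 fold changes reversed. After the GC correction, with or without the block, DARS was at 0.0090, FARSB at 0.038 and VARS at -0.28. With the GC correction and without control replicate 1, DARS was at 0.00098, FARSB at 0.045, VARS at -0.26, HARS2 at -0.030 and PTRHD1 at -0.12. Quantile scaling gave VARS -0.00105 and AIMP1 -0.022, and TPM scaling gave YARS2 0.017. Over the fits that left out 1 library, the value ran from -0.24 to 0.031 for DARS, -0.20 to 0.073 for FARSB, -0.17 to 0.25 for VARS, -0.049 to 0.11 for HARS2, -0.27 to 0.10 for TARS2, -0.052 to 0.026 for YARS2, -0.091 to 0.22 for AIMP1 and -0.13 to 0.21 for PTRHD1. The cause of these reversals was not tested. Under their alternatives, 9 to 12 pairs of cytosolic and mitochondrial genes did not overlap. These include fits that left out 1 library, where groups separate more easily.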
